A study of Homo sapiens with 8 samples.

Results

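The leucine, serine and selenocysteine tRNAs are the cytosolic tRNAs of human cells with a long variable arm. They were taken here as every mature tRNA entry of the deposited count table that is named for Leu, Ser or SeC, an anticodon and a single isodecoder number, without precursor or antisense entries. This gave 37 of the 2962 small RNA features counted, namely 18 Leu, 18 Ser and 1 SeC isodecoder. An isodecoder is one of several tRNA sequences that carry the same anticodon. The cells were HEK293, a line derived from human embryonic kidney. A synthetic copy of a 3′ fragment of tRNA-Asp-GTC (a tRNA-derived small RNA, tDR) had been transfected for 4 libraries, and a scramble control mimic for the other 4. All cells were given 50 nM of mimic with Lipofectamine RNAiMax and harvested 48 h later, so the controls shared the lipid and a transfected RNA. Total RNA was isolated with TRIzol and made into libraries by OTTR-seq, which copies RNA with a reverse transcriptase that also joins the adapters. No untransfected cells were among the groups compared. Whether replicates came from separate cultures is not stated in the labels. The p-values therefore reflect variation between libraries that could be technical.

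Leucine, serine and selenocysteine tRNAs are the class II tRNAs, in which the variable arm between the anticodon stem and the T stem forms a helix of its own. Seryl-tRNA synthetase recognises its tRNAs through that arm rather than through the anticodon, and it also charges the selenocysteine tRNA, whose serine is then converted to selenocysteine. The selenocysteine tRNA reads UGA codons of selenoprotein messages with an elongation factor of its own. Most human Leu-CAA genes carry an intron that is spliced out of the precursor.

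The 8 libraries held between 4016295 and 10246336 counts, of which 11.4% to 19.3% fell on mature tRNAs of all isotypes. An entry named scr2 held 59 to 240 counts in the tDR libraries, against 22444 to 58186 in the scramble libraries. The microRNAs chosen as markers of HEK293 cells all had an entry, with summed levels of 701 to 1212 CPM (counts scaled to library size) in tDR libraries and 1170 to 1780 CPM in scramble libraries. Blood markers reached at most 0.835 CPM in tDR libraries and 0.948 CPM in scramble libraries, and 1 of 5 had an entry. Endothelial markers summed to 5.29 to 9.95 CPM in tDR libraries and 4.32 to 6.51 CPM in scramble libraries, muscle markers to 1.54 to 3.82 CPM and 0.254 to 2.09 CPM, and neural markers to 31.9 to 57.2 CPM and 34.0 to 57.2 CPM, in the same order of groups. Liver and fibroblast markers had no entry in the table.

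All 37 isodecoders could be matched by name to genes in RefSeq (GRCh38.p14), at 57 loci on 12 chromosomes. Chromosome 6 carried 28 of these loci and chromosome 1 carried 7. The genes had a median length of 82 bases, against 73 bases for the 363 loci of the other isotypes. Outside Leu-CAA the 51 loci ranged from 82 to 87 bases, the longest being the selenocysteine tRNA, and most Leu-CAA genes reached 105 to 108 bases with their intron. Of the 57 loci, 53 lay outside protein-coding genes. The gene for tRNA-SeC-TCA-1 lay on chromosome 19 at 45478601 to 45478687, within an intron of ERCC1, a DNA repair gene. Of the serine genes, tRNA-Ser-GCT-2-1 lay in an intron of POM121L2 (chromosome 6, 27297996 to 27298077) and tRNA-Ser-GCT-4-1 in an intron of ZBED9 (chromosome 6, 28597340 to 28597421). The copy tRNA-Ser-AGA-2-6 overlapped an exon of CTC1 (chromosome 17, 8226610 to 8226691).

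Levels between genes are given per 100 bases of gene, as mean CPM over all 8 libraries, scaled with TMM (trimmed mean of M values) library factors. The highest was tRNA-Ser-GCT-3, which reads the AGC and AGU codons, at 3998 CPM per 100 bases. Its single gene lay on chromosome 11 at 66348120 to 66348201. Next were tRNA-Ser-TGA-2 at 2494, tRNA-Leu-TAA-1 at 2312 and tRNA-Ser-AGA-1 at 1855 CPM per 100 bases, each with a single gene on chromosome 6 (27545689 to 27545770, 144216547 to 144216629 and 27541775 to 27541856). By CPM, tRNA-Ser-GCT-3 exceeded tRNA-Ser-TGA-2 in each of the 8 libraries. tRNA-Leu-CAG-1, tRNA-Leu-AAG-2 and tRNA-Leu-TAG-1 followed at 1283, 1222 and 1210 CPM per 100 bases, differences smaller than the spread between libraries. tRNA-SeC-TCA-1 ranked 18 of 37 at 343 CPM per 100 bases, between tRNA-Leu-TAG-3 at 365 and tRNA-Ser-CGA-4 at 326, which also lay within that spread. At the low end, tRNA-Leu-AAG-3 stood at 8.48, tRNA-Leu-AAG-4 at 0.859 and tRNA-Leu-CAA-5 at 0.203 CPM per 100 bases, the last 2 of them near the limit of detection. The level of the spliced Leu-CAA tRNAs is understated on this scale, because the intron counts towards the gene length. Isodecoders of 1 anticodon differ by few bases, so the counting can split or share their reads, and each isodecoder's level is uncertain for that reason.

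**Figure D1:**
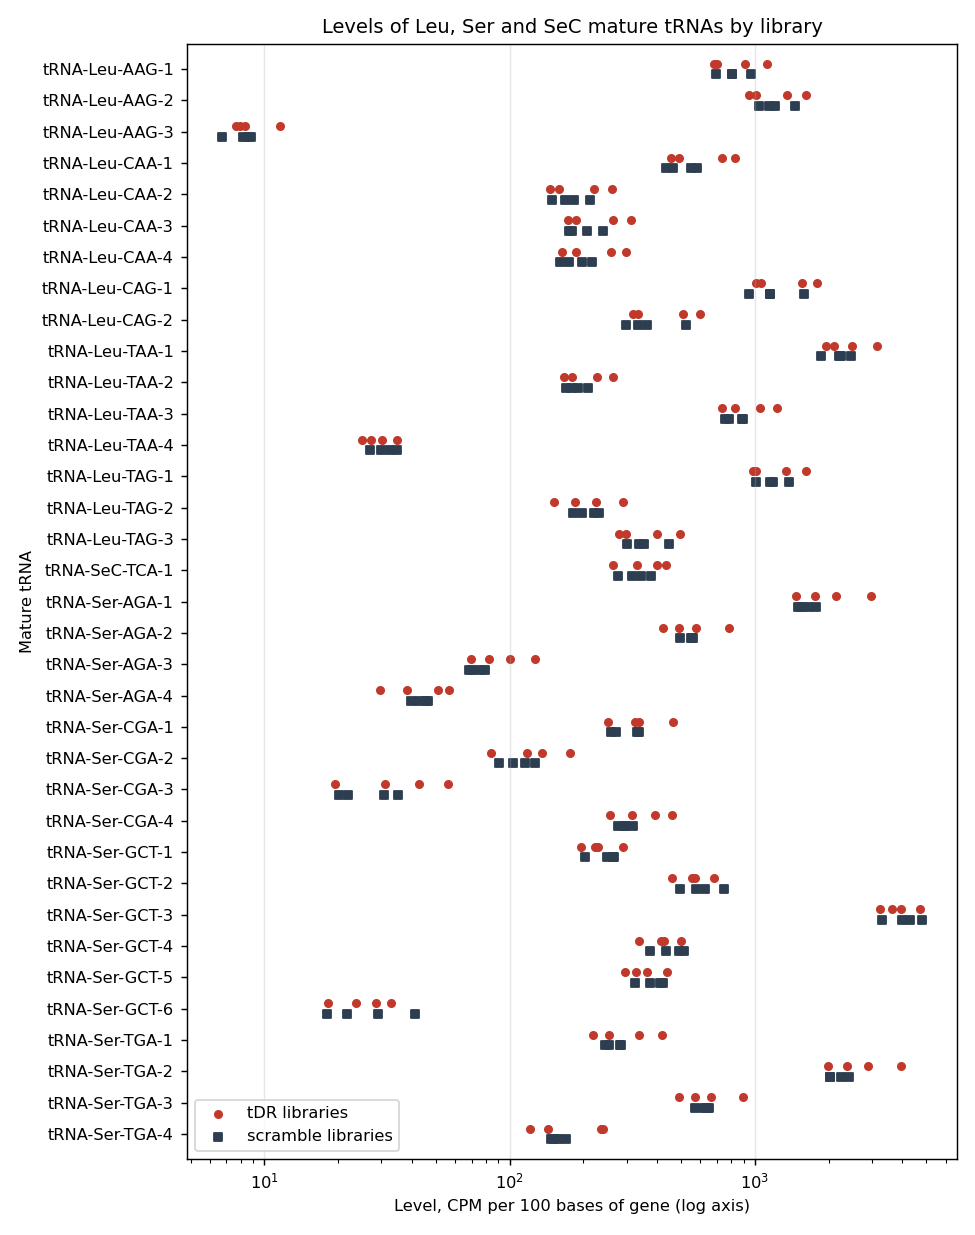
Level of each of the 35 tested Leu, Ser and SeC mature tRNAs in CPM per 100 bases of gene on a log axis, with 1 point per library, tDR libraries as circles above scramble libraries as squares. The groups overlapped for all 35, and the tDR libraries spread more widely than the scramble libraries for most of them.

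Level did not simply follow the number of gene copies. The 30 isodecoders with 1 RefSeq locus ran from 0.203 to 3998 CPM per 100 bases (median 229), and the 7 with several loci from 410 to 1283 (median 568). The rank correlation between number of loci and level was 0.39 over the 37 isodecoders, a description only, since the isodecoders share the same 8 libraries. tRNA-Leu-CAG-1 had the most loci, 7. tRNA-Ser-AGA-2 had 6 loci and 554 CPM per 100 bases, below the 1855 of tRNA-Ser-AGA-1 with 1 locus.

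**Figure D2:**
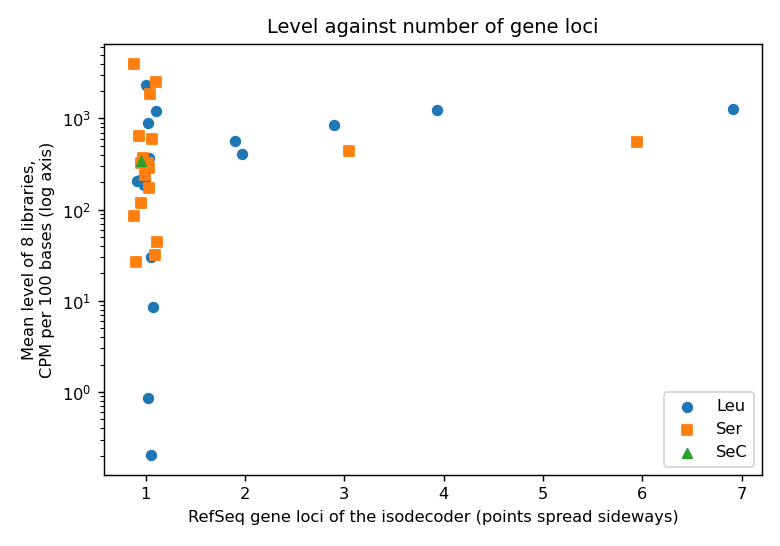
Mean level over the 8 libraries in CPM per 100 bases (log axis) against the number of RefSeq loci of each of the 37 isodecoders, with points spread sideways around whole numbers. Isodecoders with 1 locus cover the whole range of levels, and those with several loci sit between 410 and 1283.

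None of the long variable arm tRNAs passed the test between tDR and scramble cells, which was edgeR's quasi-likelihood F test, Benjamini-Hochberg adjusted over all 1761 features tested. Of 35 isodecoders tested, 0 were called higher and 0 lower, where 6.7% of all features tested were called (5.34% higher, 1.36% lower). An unadjusted p below 0.05 was reached by 1 isodecoder, tRNA-Ser-AGA-3, against 21.5% of all features, and DESeq2's Wald test also called 0. No isodecoder had groups that did not overlap, against 13.3% of all features (7.78% with tDR higher, 5.51% with tDR lower). The lowest adjusted p among the isodecoders was 0.216. Estimated log2 fold changes (tDR over scramble) ran from -0.11 to 0.48, with 28 above 0 and 7 below, where 52.2% of all features were above 0. Of the 182 tested mature tRNAs of other isotypes, 149 were above 0 and 33 below. The median of the Leu, Ser and SeC isodecoders was 0.14, beside 0.02 over all features and 0.13 over those other mature tRNAs. The median was 0.14 for Leu, 0.14 for Ser and 0.12 for SeC. These signs depended on the library scaling. With the authors' factors 7 estimates were above 0 and 28 below (median -0.084), with total counts 18 and 17, and with factors from mature tRNAs alone 19 and 16. Without tDR library 3 the median was -0.0045. Taken over the isodecoders, the 95% intervals reached from -0.60 to 1.01, and the median SE was 0.18, so a log2 difference as small as the median estimate could not be told from 0 for most isodecoders.

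**Figure D3:**
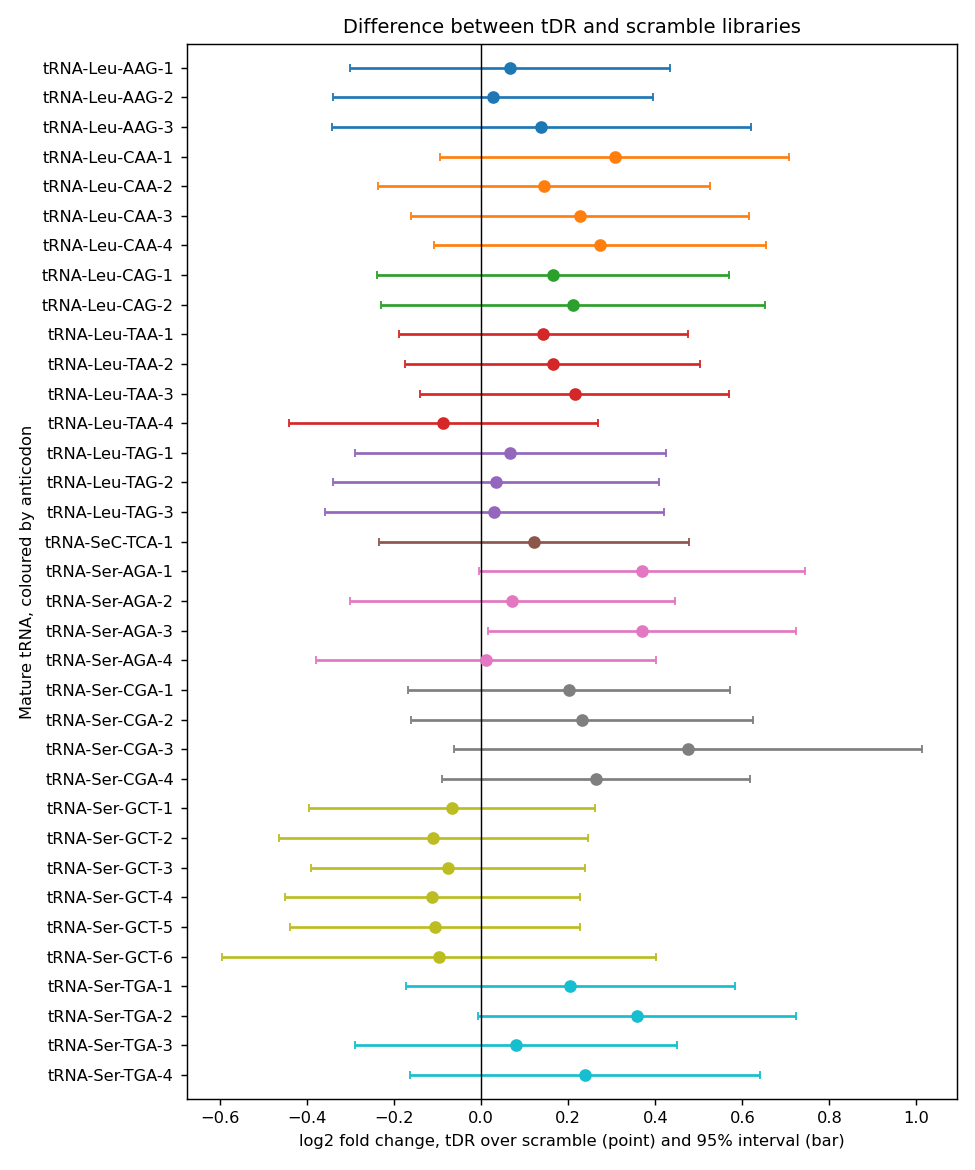
Log2 fold change, tDR over scramble, of the 35 tested isodecoders with 95% intervals from edgeR's fit, coloured by anticodon. Points run from -0.11 to 0.48, and the interval of tRNA-Ser-AGA-3 alone lies above 0.

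The sum over all 37 isodecoders was 17368, 15447, 26413 and 21361 CPM in tDR libraries 1 to 4 and 20485, 18846, 15996 and 18438 CPM in scramble libraries 1 to 4. The means were 20147 ± 4849 CPM in tDR libraries and 18442 ± 1855 CPM in scramble libraries (SD, n = 4 each). The tDR libraries held both ends of this range. tDR library 3 gave the highest value for 28 of the 35 tested isodecoders, and tDR library 2 the lowest for 25. The same libraries held the highest and the lowest share of mature tRNA in all counts, 19.3% and 11.4%. Without these 2 libraries 0 isodecoders were called and the median log2 fold change was 0.10. CPM values and shares are relative to the other counts of a library. In bulk RNA they give neither the amount per cell nor the part of the cells concerned.

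Of the 18 leucine isodecoders 16 were tested, of which 15 had an estimate above 0, and 0 were called. tRNA-Leu-CAA-1, which reads UUG, had the largest positive estimate. It stood at 519, 481, 876 and 775 CPM in tDR libraries 1 to 4 and at 616, 578, 491 and 459 CPM in scramble libraries 1 to 4. tDR libraries 3 and 4 lay above all scramble libraries and tDR libraries 1 and 2 among them. Its log2 fold change was 0.31 (SE 0.19, 95% interval -0.09 to 0.71, edgeR adjusted p = 0.374). The estimates of tRNA-Leu-CAA-2, tRNA-Leu-CAA-3 and tRNA-Leu-CAA-4 were 0.14, 0.23 and 0.27.

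tRNA-Leu-TAA-1, the most abundant leucine tRNA here and a reader of UUA, stood at 1750, 1621, 2616 and 2069 CPM in tDR libraries 1 to 4 and at 2056, 1838, 1545 and 1859 CPM in scramble libraries 1 to 4. The groups overlapped, with tDR libraries 3 and 4 above every scramble library. The log2 fold change was 0.14 (SE 0.16, 95% interval -0.19 to 0.47, edgeR adjusted p = 0.687). tRNA-Leu-TAA-4, the only leucine isodecoder with a negative estimate, stood at 20.9, 22.6, 28.9 and 25 CPM in tDR libraries and at 29, 27.1, 24.9 and 22.5 CPM in scramble libraries. The ranges nearly coincided, and its log2 fold change was -0.09 (95% interval -0.44 to 0.27).

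The other leucine anticodons, AAG, CAG and TAG, read the CUN codons, and in AAG the first anticodon base is edited to inosine. tRNA-Leu-CAG-1 stood at 884, 841, 1483 and 1295 CPM in tDR libraries 1 to 4 and at 1315, 954, 785 and 962 CPM in scramble libraries 1 to 4. Scramble library 1 lay above tDR library 4, and the log2 fold change was 0.17 (95% interval -0.24 to 0.57). tRNA-Leu-AAG-2 stood at 833, 780, 1325 and 1109 CPM in tDR libraries and at 1192, 992, 851 and 935 CPM in scramble libraries. tRNA-Leu-TAG-1 stood at 830, 810, 1321 and 1100 CPM in tDR libraries and at 1130, 970, 832 and 945 CPM in scramble libraries. Both sets of libraries were intermixed, and the log2 fold changes were 0.03 (95% interval -0.34 to 0.40) for tRNA-Leu-AAG-2 and 0.07 (95% interval -0.29 to 0.42) for tRNA-Leu-TAG-1. The sign of both turned with the library scaling, to -0.11 and -0.07 with factors from mature tRNAs alone.

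A pair of leucine isodecoders had too few counts for the test. tRNA-Leu-AAG-4 held 3, 8, 4 and 7 counts in tDR libraries 1 to 4 and 8, 3, 2 and 8 counts in scramble libraries 1 to 4. tRNA-Leu-CAA-5 was included by its name, and its variable arm was not examined. Its gene, at 74 bases, was the shortest of the 57 loci and near the median of 73 bases of the other isotypes. This isodecoder held 0, 0, 1 and 0 counts in tDR libraries 1 to 4 and 2, 3, 0 and 6 counts in scramble libraries 1 to 4. A count of 0 allows up to 3 counts, so both lay near the limit of detection.

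All 18 serine isodecoders were tested, 12 with an estimate above 0 and 6 below, and 0 were called. The 6 below 0 were the 6 isodecoders of Ser-GCT, with log2 fold changes from -0.11 to -0.07 and a median of -0.10. The medians of Ser-AGA, Ser-CGA and Ser-TGA, which read the UCN codons, were 0.22, 0.25 and 0.22. With library factors from microRNAs alone all 35 isodecoders, Ser-GCT included, had estimates above 0.

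tRNA-Ser-AGA-1 stood at 1439, 1213, 2448 and 1761 CPM in tDR libraries 1 to 4 and at 1263, 1453, 1233 and 1358 CPM in scramble libraries 1 to 4. tRNA-Ser-TGA-2 stood at 1948, 1638, 3226 and 2378 CPM in tDR libraries and at 1663, 1992, 1670 and 1845 CPM in scramble libraries. For both, tDR libraries 3 and 4 lay above every scramble library and tDR library 2 below every one. The log2 fold changes were 0.37 (SE 0.18, 95% interval -0.0043 to 0.74, edgeR adjusted p = 0.236) for tRNA-Ser-AGA-1 and 0.36 (SE 0.17, 95% interval -0.01 to 0.72, edgeR adjusted p = 0.240) for tRNA-Ser-TGA-2.

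tRNA-Ser-AGA-3 stood at 67.5, 57.4, 105 and 82.2 CPM in tDR libraries 1 to 4 and at 56.1, 65.2, 62.2 and 57.8 CPM in scramble libraries 1 to 4. Only tDR library 2 lay among the scramble libraries. Its log2 fold change was 0.37 (SE 0.17, 95% interval 0.01 to 0.72, edgeR adjusted p = 0.216). tRNA-Ser-CGA-3, a rare isodecoder, had the largest estimate of all, 0.48, also with the largest SE, 0.26. It stood at 25.5, 15.9, 45.9 and 34.9 CPM in tDR libraries and at 17.9, 28.8, 25.2 and 16.5 CPM in scramble libraries (95% interval -0.06 to 1.01, edgeR adjusted p = 0.292). Its tDR libraries covered the whole scramble range. tRNA-Ser-CGA-4 and tRNA-Ser-CGA-1 were about equally abundant, with mean counts of 2089 and 2085 over the 8 libraries. tRNA-Ser-CGA-4 stood at 260, 211, 376 and 320 CPM in tDR libraries and at 240, 262, 228 and 242 CPM in scramble libraries, a log2 fold change of 0.26 (95% interval -0.09 to 0.62).

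tRNA-Ser-GCT-3 stood at 2982, 2658, 3887 and 3237 CPM in tDR libraries 1 to 4 and at 3959, 3268, 2713 and 3523 CPM in scramble libraries 1 to 4. The groups spanned nearly the same range, and the log2 fold change was -0.08 (SE 0.15, 95% interval -0.39 to 0.24, edgeR adjusted p = 0.844). tRNA-Ser-GCT-4 averaged 344 ± 54.0 CPM in tDR libraries and 372 ± 51.6 CPM in scramble libraries (SD, n = 4 each), with a log2 fold change of -0.11. tRNA-Ser-GCT-2 averaged 465 ± 74.4 CPM in tDR libraries and 501 ± 88.8 CPM in scramble libraries, also -0.11. These differences were smaller than the SD of either group. tRNA-Ser-GCT-5 (293 ± 50.3 CPM in tDR and 315 ± 35.9 CPM in scramble libraries) gave -0.11, and the rare tRNA-Ser-GCT-6 (21.6 ± 5.29 CPM in tDR and 23.1 ± 8.65 CPM in scramble libraries) gave -0.10.

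The selenocysteine tRNA, tRNA-SeC-TCA-1, stood at 287, 230, 349 and 378 CPM in tDR libraries 1 to 4 and at 300, 328, 274 and 242 CPM in scramble libraries 1 to 4. tDR libraries 3 and 4 lay above the scramble libraries and tDR library 2 below them. The log2 fold change was 0.12 (SE 0.17, 95% interval -0.23 to 0.48, edgeR adjusted p = 0.784). It was -0.01 with library factors from mature tRNAs alone and to -0.08 with the authors' factors, in both cases without a call.

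Summing the isodecoders of each anticodon gave the same picture. Of the 10 pools 0 were called and 0 had an unadjusted p below 0.05, where 11.9% of the features in that table were called, and DESeq2 called 0 as well. The largest estimates were a log2 fold change of 0.31 for Ser-AGA (2332 ± 879 CPM in tDR libraries and 1877 ± 137 CPM in scramble libraries, SD, n = 4 each) and 0.31 for Ser-TGA (3292 ± 1216 CPM in tDR libraries and 2663 ± 220 CPM in scramble libraries). Their edgeR adjusted p-values were 0.335 and 0.343. Ser-GCT was the only pool below 0, at -0.08 (edgeR adjusted p = 0.826).

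Precursor transcripts of these genes were rare. The 45 precursor entries carried 0.337% ± 0.0274 of the counts of the mature tRNAs in tDR libraries and 0.320% ± 0.0334 in scramble libraries (SD, n = 4 each). For the other isotypes the ratio was 0.338% ± 0.0311 in tDR libraries and 0.308% ± 0.0596 in scramble libraries. Leucine precursors, at 0.564% in tDR libraries and 0.550% in scramble libraries, were more frequent relative to their mature form than serine precursors, at 0.148% in tDR libraries and 0.135% in scramble libraries. The leucine ratio exceeded the serine ratio in each of the 8 libraries. The selenocysteine precursor tRNA-SeC-TCA-1-1 held 4, 5, 4 and 9 counts in tDR libraries 1 to 4 and 2, 7, 2 and 7 counts in scramble libraries 1 to 4, too few for the test. Of 19 precursors tested 0 were called by edgeR (lowest adjusted p 0.277, 0 with an unadjusted p below 0.05), with 11 estimates above 0, 8 below and a median of 0.10. The widest were -0.87 for tRNA-Leu-CAA-2-1 and 0.84 for tRNA-Ser-CGA-3-1, with 95% intervals of -1.82 to 0.08 and -0.12 to 1.80. For 1 of the 19, tRNA-Leu-TAA-3-1, the groups did not overlap, against 13.3% of all features, with 7.34 ± 0.572 CPM in tDR libraries and 5.39 ± 0.843 CPM in scramble libraries (SD, n = 4 each). It was picked out after its values were seen and did not pass (log2 fold change 0.43, edgeR adjusted p = 0.278). Precursors tRNA-Leu-CAG-1-2 to tRNA-Leu-CAG-1-5 had identical counts in every library and so are not separate measurements. tRNA-Leu-CAG-1-1 differed from them only in scramble library 4, at 31 counts against 33. tRNA-Leu-AAG-1-1 and tRNA-Leu-AAG-1-2 were also identical in every library. Such repeats are included in the counts of estimates above and below 0 and in the precursor ratios. The 37 antisense entries held at most 1 count in any library. RPPH1, the RNA of the RNase P enzyme that trims the 5′ end of tRNA precursors, did not pass the test, with an estimate of 0.11 on the log2 scale (SE 0.14, edgeR adjusted p = 0.764). The related RNase MRP enzyme has the RNA RMRP, which was called higher, at 96.8 ± 9.32 CPM in tDR libraries and 63.1 ± 6.80 CPM in scramble libraries (SD, n = 4 each; log2 fold change 0.62, SE 0.14, edgeR adjusted p = 0.0119). With library factors from mature tRNAs alone 0 of the 1761 features tested were called, so RMRP was not called there.

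Shares within the mature tRNA counts do not depend on the library scaling. The long variable arm tRNAs made up 12.1%, 11.5%, 12.3% and 12.1% of mature tRNA counts in tDR libraries 1 to 4 and 12.1%, 11.3%, 11.9% and 12.3% in scramble libraries 1 to 4. The means were 12% ± 0.341 in tDR libraries and 11.9% ± 0.454 in scramble libraries (SD, n = 4 each), a difference smaller than the spread. Leu made up 5.41% ± 0.212 in tDR libraries and 5.32% ± 0.340 in scramble libraries. Ser made up 6.41% ± 0.261 in tDR libraries and 6.40% ± 0.351 in scramble libraries. SeC made up 0.187% ± 0.0245 in tDR libraries and 0.185% ± 0.0194 in scramble libraries. Each of these differences was smaller than the SD of either group.

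**Figure D4:**
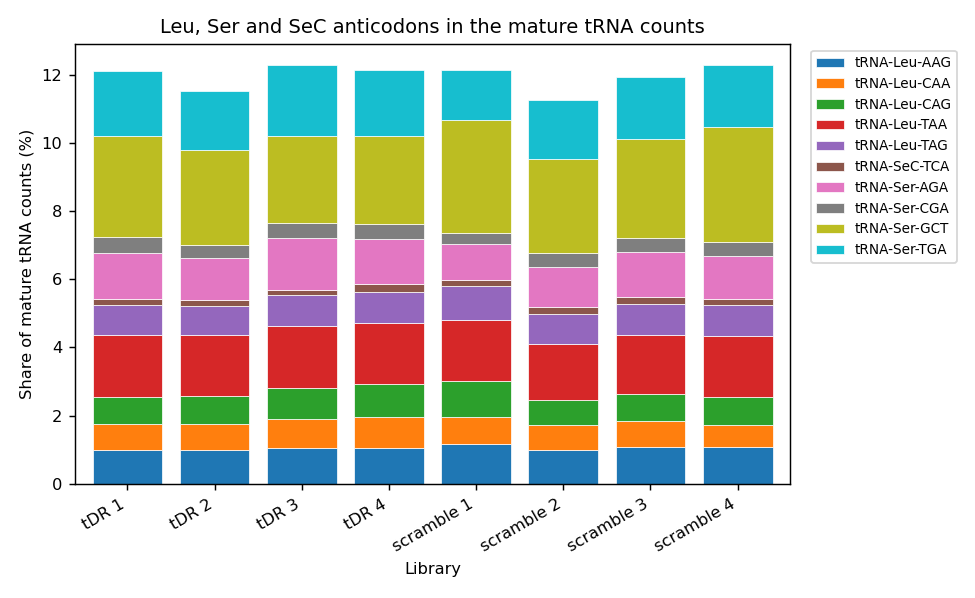
Share of each Leu, Ser and SeC anticodon in the mature tRNA counts (%), stacked per library, with the tDR libraries left of the scramble libraries. The stacks reach 11.5% to 12.3% in tDR libraries and 11.3% to 12.3% in scramble libraries, with Ser-GCT the widest band.

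Within anticodons, the balance of some serine isodecoders differed. The following tests of shares, and the isodecoders and anticodons named from them, were chosen after the values were seen. Each isodecoder's share in the counts of its anticodon was compared as log2 odds with limma over 215 mature tRNA entries, of which 6 (2.79%) passed an adjusted p of 0.05. Among 34 isodecoders of Leu and Ser 4 passed, 2 higher and 2 lower, and 30 did not. The groups did not overlap for 5 of the 34, against 8.37% of the 215.

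tRNA-Ser-AGA-1 made up 74.5%, 73.7%, 75.5% and 74.7% of Ser-AGA counts in tDR libraries 1 to 4 and 69.9%, 72.4%, 70.9% and 71.2% in scramble libraries 1 to 4. Every tDR library lay above every scramble library, and the difference in log2 odds was 0.26 (SE 0.0445, limma adjusted p = 0.0105). tRNA-Ser-AGA-2 made up 20.8%, 21.0%, 19.8% and 20.1% in tDR libraries and 24.9%, 22.6%, 23.4% and 24.1% in scramble libraries. Here every tDR library lay below every scramble library (log2 odds -0.28, SE 0.0475, limma adjusted p = 0.0105). As the shares of an anticodon sum to 100%, these 2 results are not independent. The count of tRNA-Ser-AGA-1 was 3.66 ± 0.132 times that of tRNA-Ser-AGA-2 in tDR libraries and 3.00 ± 0.164 times in scramble libraries (SD, n = 4 each).

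Ser-TGA showed the same kind of shift between its main isodecoders. tRNA-Ser-TGA-2 made up 71.1%, 70.6%, 71.7% and 70.0% of Ser-TGA counts in tDR libraries 1 to 4 and 66.5%, 69.0%, 67.7% and 67.4% in scramble libraries 1 to 4 (log2 odds 0.22, SE 0.0426, limma adjusted p = 0.0144). tRNA-Ser-TGA-3 made up 17%, 17.4%, 16.3% and 16.1% in tDR libraries and 20.3%, 18.2%, 19.0% and 19.4% in scramble libraries (log2 odds -0.25, SE 0.05, limma adjusted p = 0.0149). For both the groups did not overlap. The count ratio of tRNA-Ser-AGA-1 to tRNA-Ser-TGA-2 was 0.745 ± 0.00947 in tDR libraries and 0.741 ± 0.0129 in scramble libraries, and that of tRNA-Ser-AGA-2 to tRNA-Ser-TGA-3 was 0.865 ± 0.00858 and 0.871 ± 0.0109 in the same order of groups. These ratios varied by a few percent over all libraries, so the isodecoders of the 2 anticodons moved in step. The sources used here do not say how reads that match several isodecoders were counted, and its part in these shares was not tested.

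The calls depended on the libraries used. Without tDR library 3 the shares of tRNA-Ser-TGA-2 and tRNA-Ser-TGA-3 missed the threshold (limma adjusted p = 0.0523 and 0.0579), and without tDR library 4 that of tRNA-Ser-TGA-3 did (0.0691). Without tDR libraries 2 and 3 together 0 of 4 were called (limma adjusted p 0.213 to 0.239), with log2 odds of 0.25, -0.28, 0.20 and -0.26. edgeR's test of exon-style usage on counts called 0 (adjusted p = 1.00). That test rests on the spread of each isodecoder's counts between libraries, not on the spread of its share. The share of tRNA-Leu-CAA-2, at 15.6% ± 0.323 in tDR libraries and 16.8% ± 0.471 in scramble libraries, did not overlap between groups but did not pass (limma adjusted p = 0.215).

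**Figure D5:**
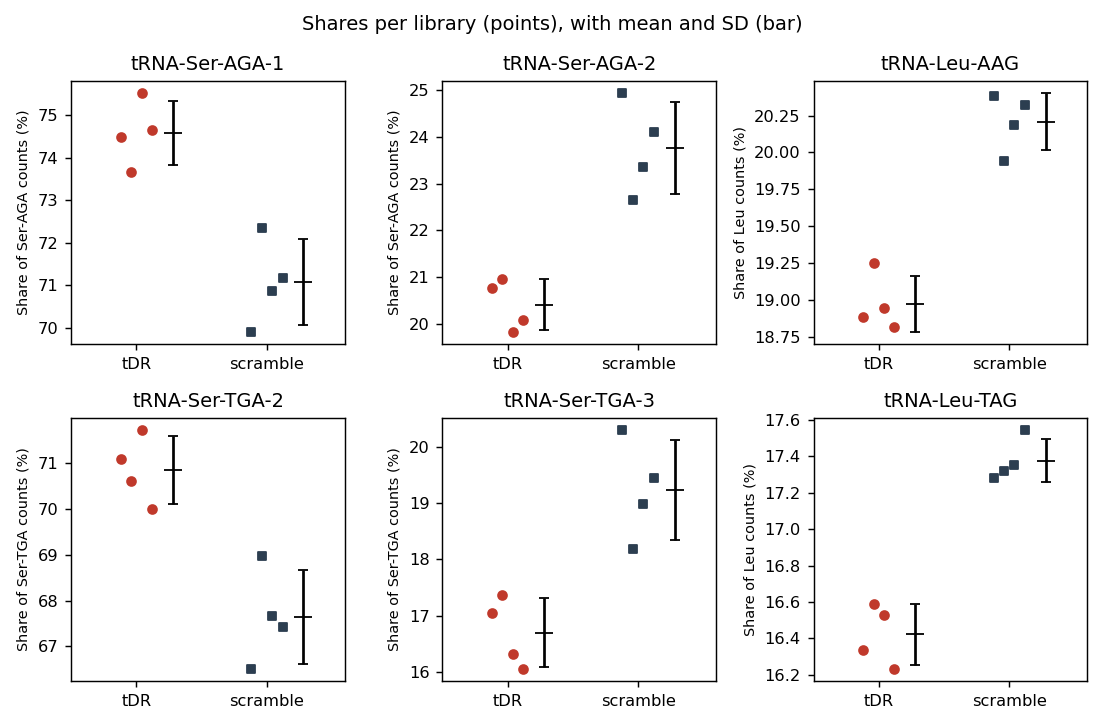
Shares (%) in tDR libraries, left, and scramble libraries, right, with 1 point per library and the mean with SD as a bar, for tRNA-Ser-AGA-1 and tRNA-Ser-AGA-2 within Ser-AGA, tRNA-Ser-TGA-2 and tRNA-Ser-TGA-3 within Ser-TGA, and Leu-AAG and Leu-TAG within Leu. The axes do not start at 0, and in all 6 panels the groups do not overlap.

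Among the leucine anticodons, Leu-AAG and Leu-TAG took a smaller share of leucine counts in tDR libraries. Anticodon shares within an isotype were compared in the same way over 38 anticodons, of which 2 (5.26%) passed, both of them leucine. Leu-AAG made up 18.9%, 19.2%, 18.9% and 18.8% of leucine counts in tDR libraries 1 to 4 and 20.4%, 19.9%, 20.2% and 20.3% in scramble libraries 1 to 4 (log2 odds -0.11, SE 0.0176, limma adjusted p = 0.00528). Leu-TAG made up 16.3%, 16.6%, 16.5% and 16.2% in tDR libraries and 17.3%, 17.3%, 17.4% and 17.5% in scramble libraries (log2 odds -0.10, SE 0.0140, limma adjusted p = 0.00528). Every tDR library lay below every scramble library for both, against 10.5% of the 38 anticodons with groups that did not overlap. The differences were -1.24 and -0.953 percentage points. The count ratio of Leu-AAG to Leu-TAG was 1.16 ± 0.00656 in tDR libraries and 1.16 ± 0.0119 in scramble libraries (SD, n = 4 each), so these anticodons also moved in step and are not shown to be separate results. How reads that match isodecoders of both were counted is not stated, and its part in these shares was not tested.

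No other leucine anticodon passed this test. Leu-TAA made up 33.4% ± 1.37 in tDR libraries and 32.7% ± 1.40 in scramble libraries, Leu-CAG 16.3% ± 0.836 and 15.8% ± 1.48, and Leu-CAA 14.9% ± 0.719 and 13.8% ± 1.09, in the same order of groups (SD, n = 4 each). Their intervals in log2 odds were -0.10 to 0.19, -0.14 to 0.25 and -0.04 to 0.30. Without scramble library 4 the calls of Leu-AAG and Leu-TAG were lost (limma adjusted p = 0.0509 and 0.0506), and without tDR libraries 2 and 3 as well (0.162 for both). With entries of near-equal counts taken once, whether or not they share reads, the call of Leu-TAG was lost (limma adjusted p = 0.124). That setting left out tRNA-Leu-TAG-1, the main isodecoder of Leu-TAG.

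The serine anticodons varied more between libraries. Ser-GCT made up 44.4%, 45.5%, 38.7% and 41.2% of serine counts in tDR libraries 1 to 4 and 53.4%, 45.4%, 44.8% and 48.8% in scramble libraries 1 to 4. The groups overlapped, and the difference of -5.67 percentage points, the largest of the 9 anticodons, did not pass (log2 odds -0.33, 95% interval -0.65 to -0.01, limma adjusted p = 0.270). Ser-TGA made up 29.8% ± 1.67 in tDR libraries and 26.9% ± 2.11 in scramble libraries, Ser-AGA 21.1% ± 1.31 and 18.9% ± 1.26, and Ser-CGA 6.57% ± 0.293 and 6.09% ± 0.608, in the same order of groups. None of these passed either.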

How the data were processed

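Small RNA was measured in 8 libraries of HEK293 cells, 4 tDR and 4 scramble, grouped by the labels. The authors deposited raw counts per feature (whole numbers) and a normalized signal, which on comparison was the count divided by a factor per library, separate for tRNA and other features in 100% of values. Per the submitters' processing notes reads were placed on hg38. Not given in the sources used here are the aligner, the counter, the handling of strand and how the factors were estimated. Entries are named for whole tRNAs and do not separate full-length tRNAs from fragments.

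Of 2964 entries, 2 (scr and scr2) are not genes and were left out. In edgeR 4.0.16 under R 4.3.3, counts were filtered with filterByExpr, scaled by TMM and compared between groups with the robust quasi-likelihood F test, with no covariate. Features with a Benjamini-Hochberg adjusted p below 0.05 among the 1761 tested were called (1201 were not tested, and the biological coefficient of variation was 19.0%). The SE is the absolute log2 fold change divided by the root of F. Anticodon pools were fitted in a second table with mature isodecoders summed. Shares were tested with limma 3.58.1 on log2 odds with 0.5 counts added. Alternatives were other library factors, no filter or a mean count of at least 50, DESeq2 1.42.0, a replicate block and limma-voom. Others were limma on the deposited normalized signal (log2, 1 added), mature tRNAs alone and leaving out libraries. In a further setting, entries of near-equal counts (within 10% or 3 counts) were taken once, whether or not they share reads. For tRNAs this was done within an isotype. The fits were tested on simulated data. Replicate libraries differed by a chi-square of at least 13.2 per degree of freedom, so none was a copy.

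The members and lists were chosen with earlier results of these data known. Named in the text were the SeC entry, the isodecoder with the highest mean count of each anticodon, the 5 largest positive and 5 largest negative estimates, and the isodecoders not tested. The share tests, the pools and isodecoders named from them, and the fits on mature tRNAs alone and without tDR libraries 2 and 3 were chosen after the values were seen. Gene positions are from RefSeq GRCh38.p14. Python 3.11.15 was used for tables and figures.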

Additional observations from a re-analysis of the deposited data

How the results depend on the processing

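The isodecoders called (0) and the anticodon pools called (0) were the same in every setting run, and the lowest adjusted p over those settings was 0.0771, without tDR library 2. The number of all features called was 118 and became 0 with TMM factors from mature tRNAs alone, 185 with the authors' factors, 194 with DESeq2's Wald test, 185 with limma on the normalized signal, 46 without tDR libraries 2 and 3, and 65 to 164 when 1 library was left out. The median log2 fold change of the isodecoders was 0.53 with factors from microRNAs alone, where that of all features was 0.36. It was -0.084 with the authors' factors (7 estimates above 0 and 28 below) and ran from -0.0045 to 0.25 when 1 library was left out. With total counts the median of all features was -0.13 and that of the isodecoders 7.5e-05. The cause of these shifts was not tested.

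Estimates near 0 changed sign. With total counts tRNA-Leu-AAG-2, tRNA-Leu-TAG-1 and tRNA-SeC-TCA-1 gave -0.11, -0.074 and -0.0091, with TMM factors from mature tRNAs -0.11, -0.065 and -0.0078, and with mature tRNAs fitted alone -0.11, -0.065 and -0.0065. With the authors' factors they gave -0.20, -0.16 and -0.084, and tRNA-Leu-CAG-1 and tRNA-Leu-TAA-1 gave -0.070 and -0.085. With limma on the normalized signal these 5 gave -0.20, -0.16, -0.096, -0.053 and -0.075. With factors from microRNAs tRNA-Leu-TAA-4 gave 0.27 and tRNA-Ser-GCT-2 to tRNA-Ser-GCT-6 gave 0.25, 0.29, 0.26, 0.28 and 0.23. With entries of near-equal counts taken once tRNA-Ser-GCT-3 gave 0.0020, and without tDR libraries 2 and 3 tRNA-Leu-AAG-2 gave -0.023. Leaving out 1 library gave -0.12 to 0.14 for tRNA-Leu-AAG-2, -0.081 to 0.17 for tRNA-Leu-TAG-1, -0.0045 to 0.24 for tRNA-Leu-TAA-1, -0.22 to 0.0021 for tRNA-Ser-GCT-2, -0.19 to 0.0080 for tRNA-Ser-GCT-3 and -0.28 to 0.16 for tRNA-Ser-GCT-6. None of these passed the test in any setting run.

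The share calls were fewer in several settings with the direction kept. The 4 isodecoder calls became 0 with edgeR's usage test, 0 without tDR libraries 2 and 3, and 2 to 4 when 1 library was left out. The 2 anticodon calls became 0 without tDR libraries 2 and 3, and 0 to 2 when 1 library was left out. They became 1 with entries of near-equal counts taken once, a setting that left out tRNA-Leu-TAG-1, the main isodecoder of Leu-TAG. The labels do not say whether same-numbered libraries belong together. Same-numbered tDR and scramble libraries had correlations of -0.384, -0.205, -0.310 and -0.133 in their deviations from the group means. These values show no pairing, but with 4 libraries per group they cannot exclude it. The replicate block left 39 features, 0 isodecoder shares (adjusted p 0.0535 to 0.0680) and 0 anticodon shares (0.183) called. Depth limited tRNA-Leu-AAG-4, tRNA-Leu-CAA-5 and most precursors.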
